A study of Mus musculus with 2 samples.

Results

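The genes Emx1, Emx2, Lhx2, Eomes, Neurod6, Tbr1, Fezf2 and Bcl11b encode transcription factors of the cells that build the projection neurons of the cerebral cortex. Their single-base m6A sites were taken from 2 GLORI libraries, and a site was counted for a gene when it lay inside its GENCODE M21 gene interval (GRCm38) on its own strand. The 8 genes, of 21951 protein-coding genes in that annotation, held 34 of the 79355 sites listed for the cerebellum and 170 of the 188295 sites listed for the cerebrum. With both lists united they held 173 of 219409 sites, and 31 of the 173 were listed at the same base in both tissues.

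The libraries were 1 of cerebellum and 1 of cerebrum, both from a female F1r mouse at P0, the day of birth. F1r is the cross of a C57 (C57BL/6J) mother with a PWK (PWK/PhJ) father, so each autosomal gene had 1 copy of each strain. The labels name no engineered allele and no treatment of the mouse, and the RNA was poly(A)+ RNA of the whole tissue. GLORI (glyoxal and nitrite treatment) makes unmethylated adenosine read as G, and adenosine with m6A keeps reading as A. The deposited lists give the position of each site and neither its methylation rate nor its reads, so read depth is unknown for every site, and a site that is not listed may be unmethylated, not expressed or thinly covered. In whole tissue, fewer cells of a type and less RNA per cell cannot be told apart. With 1 library per tissue no test between tissues was possible, and the 95% Wilson intervals below cover counting error over sites or adenosines, which share transcripts and are not independent.

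The labels were checked first, with the whole marker lists given further below. En1 and En2, the engrailed factors of the hindbrain, had 5 and 8 exonic DRACH sites in the cerebellum list and 0 in the cerebrum list, and Dlx1 and Lhx6 of the forebrain had 0 in the cerebellum list against 27 and 18 in the cerebrum list. Chromosome Y held 14 sites of the cerebellum list and 30 of the cerebrum list, although the mouse was recorded as female. The 8 genes lie on autosomes. The cerebrum list was deposited under a name that also carries the study's short form for cerebellum, and the recorded tissue was used.

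As background, cortical projection neurons arise from radial glia of the dorsal forebrain, which use Emx1, Emx2 and Lhx2 to take on and keep a cortical fate. Radial glia give rise to intermediate progenitors marked by Eomes (Tbr2), and the newborn glutamatergic neurons then turn on Neurod6. Tbr1 specifies corticothalamic neurons of layer 6, and Fezf2 with its downstream factor Bcl11b (Ctip2) specifies subcerebral neurons of layer 5. Some of the genes are also used elsewhere, Bcl11b in striatal neurons, Eomes in unipolar brush cells of the cerebellum and Tbr1 in cerebellar nuclei. The m6A mark is placed on mRNA by the METTL3-METTL14 writer, mostly at adenosines in the motif DRACH, in which D is A, G or T, R is A or G and H is A, C or T in DNA letters.

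The DRACH site nearest to the stop codon of each gene is shown first, with a site in both tissues preferred where there was one, because these sites show which letters surround the mark. The DRACH letters are in capitals with the listed adenosine at their centre, and coordinates are those of GRCm38.
Emx1, chr6:85204062-85204082, plus strand: acctccaaTGACTaggggaac
Emx2, chr19:59464525-59464545, plus strand: aaggcacaGGACTtttaattt
Lhx2, chr2:38369122-38369142, plus strand: ttttctaaTGACTcgccaccc
Eomes, chr9:118485036-118485056, plus strand: ttccagatGGACCtggtggtg
Neurod6, chr6:55678844-55678864, minus strand: cccccaatTAACTataatggg
Tbr1, chr2:61812391-61812411, plus strand: tgcgccaaGGACAtaggcggc
Fezf2, chr14:12342500-12342520, minus strand: cctagccaGGACAgttcagag
Bcl11b, chr12:107915428-107915448, minus strand: acacttgcTGACTaatgatgt

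The sites of Emx2, Lhx2, Neurod6 and Bcl11b among these were listed in both tissues, and those of Emx1, Eomes, Tbr1 and Fezf2 in the cerebrum. The distance to the stop codon was counted from its last base. The Lhx2 site lay 3 nt past the stop codon, and the Emx1 site lay at -4, so that the last letter of its motif is the first letter of the stop codon. The only site of Neurod6 shared by the tissues lay in the coding sequence at -217, and the only one of Emx2 lay in the 3′ UTR at 488.

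Several genes also carried DRACH sites packed closely together. The runs below were chosen after their values were seen, as those with 3 sites, those with adenosines 4 nt apart and 1 run of Bcl11b with both sites listed in both tissues, and each group of capitals is a listed DRACH site of the cerebrum.
Tbr1, coding sequence, chr2:61812375-61812403, plus strand: GGACTgcgagaaGAACTgcgccaaGGACA
Fezf2, coding sequence, chr14:12342575-12342595, minus strand: AAACTtTGACTtaaagAAACA
Emx2, 3′ UTR, chr19:59464132-59464140, plus strand: AAACAAACT
Bcl11b, 3′ UTR, chr12:107913415-107913423, minus strand: AAACAAACA
Bcl11b, 3′ UTR, chr12:107914041-107914061, minus strand: GGACAtactatacattGGACT

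The 3 Tbr1 sites stood 12 nt apart, each at the second position of its codon, at -61, -49 and -37. The 3 Fezf2 sites lay at -97, -91 and -81. In the Emx2 run and the first Bcl11b run the motifs overlapped by 1 letter, with the adenosines 4 nt apart. Neighbouring DRACH sites up to 30 nt apart occurred 18 times in Bcl11b, 4 times each in Tbr1 and Fezf2, 3 times in Neurod6 and 1 time in Emx2. They did not occur in Lhx2, Eomes or Emx1. Exonic DRACH sites numbered 54 in Bcl11b, 16 in Tbr1, 13 each in Fezf2 and Neurod6, 5 in Emx2, 8 in Lhx2, 4 in Eomes and 1 in Emx1. The same count was not made over other genes, so no closer packing than elsewhere is shown.

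All 8 genes had more listed sites in the cerebrum than in the cerebellum. The cerebrum held 5-fold as many sites of the 8 genes as the cerebellum, 170 against 34, while over all listed sites the ratio was 2.37. Bcl11b, which held the most sites, had a lower ratio than the group, and without it the ratio was 9.1, 91 against 10. Without Bcl11b and Lhx2 it was 39, 78 against 2. These 2 genes were left out after their values were seen, as those with the most cerebellum sites. The high ratio follows from that choice and rests on 2 cerebellum sites. The plot of sites per gene shows that Bcl11b and Lhx2 together account for 32 of the 34 cerebellum sites. Counted as exonic DRACH sites, the 8 genes had 114 in the cerebrum and 30 in the cerebellum, a ratio of 3.8 against 1.72 over all coding genes with such a site.

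**Figure D1:**
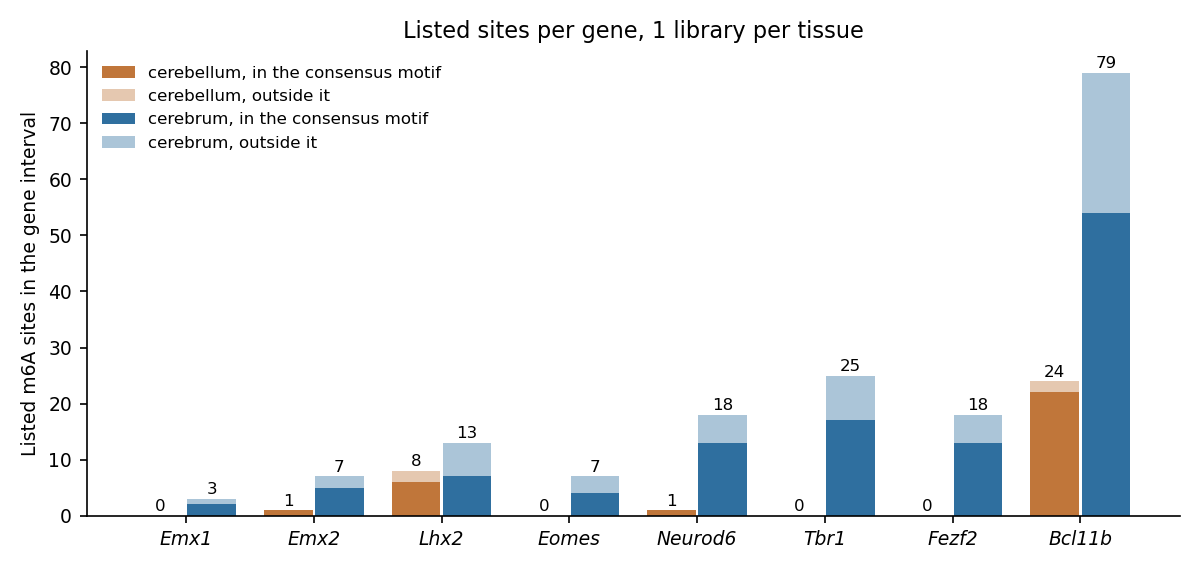
Listed m6A sites inside the interval of each gene (y axis, number of sites) in the cerebellum (orange) and the cerebrum (blue), with sites in the DRACH motif in the full colour and others in the pale colour. The bar of the cerebrum is the higher one for every gene, and Emx1, Eomes, Tbr1 and Fezf2 have 0 sites in the cerebellum.

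Each gene had at least 1 exonic DRACH site in the cerebrum, as did 44.2% of all coding genes. In the cerebellum 4 of the 8 genes had one, against 34.3% of coding genes. The other 4 genes, Emx1, Eomes, Tbr1 and Fezf2, had a cerebrum site and none in the cerebellum. Among coding genes with an exonic DRACH site in the cerebrum, 25.6% had none in the cerebellum. Genes with few sites make up most of that share. Of the coding genes with 10 or more such sites in the cerebrum, 2.4% (64 of 2666) had none in the cerebellum. Tbr1 and Fezf2 were among these 64, and Neurod6 and Bcl11b, the other 2 of the 8 genes with 10 or more, had 1 and 22 in the cerebellum. The limit of 10 was chosen after the data were seen.

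Emx1, a homeobox gene of cortical radial glia, had 3 listed sites in the cerebrum and 0 in the cerebellum. Its DRACH site at -4 was the single one on the coding transcript, of 14 DRACH adenosines there. A second DRACH site, AGACA, lay just past the end of that transcript in an exon of a retained-intron isoform, and the third site, CCATG, was outside the motif in the 3′ UTR. With the off-transcript site left out, Emx1 had 0.641 exonic DRACH sites per kb of transcript in the cerebrum. This was the lowest density of the 8 genes and rests on that single site. By the listed share of DRACH adenosines, given below, Eomes was lower.

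Emx2, the related homeobox gene that patterns the caudal and medial cortex, had 7 sites in the cerebrum and 1 in the cerebellum. All 5 of its DRACH sites were in the 3′ UTR, between 29 and 1030 nt past the stop codon. The cerebellum site, GGACT at 488, was one of these 5. None of the 10 DRACH adenosines in the Emx2 coding sequence was listed, 0% with an upper bound of 27.8%. Over the background genes, defined further below, 7.93% of such adenosines were listed in the cerebrum. The density was 1.71 DRACH sites per kb in the cerebrum and 0.343 in the cerebellum.

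Lhx2, a LIM homeobox gene needed for cortical identity, differed least between the tissues, with 13 sites in the cerebrum and 8 in the cerebellum, and 6 of them shared. On exons 7 DRACH sites were listed in the cerebrum and 6 in the cerebellum, a density of 2.46 and 2.11 per kb. Both tissues listed AGACT at -115, TGACT at 3, GGACT at 246 and AGACT at 305, and GGACT at -337. TAACT at -74 was the single DRACH site of all 8 genes listed in the cerebellum and not in the cerebrum. Exon 3 carried 2 DRACH sites in the cerebrum, GGACT at -823 and GGACA at -742, that the cerebellum list lacked.

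Eomes, the T-box gene of intermediate progenitors, had 7 sites in the cerebrum and 0 in the cerebellum. Its 4 DRACH sites were all in the 3′ UTR, at 34, 79, 376 and 562. None of the 46 DRACH adenosines of its coding sequence was listed, a share of 0% with an upper bound of 7.71%. The share over the background genes was 7.93% in coding sequences, only just above that bound. Of the 79 DRACH adenosines of Eomes 23 lay within 100 nt of a junction, where the background share was 2.07%. At 1.12 DRACH sites per kb in the cerebrum Eomes had the lowest density after Emx1.

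Neurod6, a basic helix-loop-helix gene of newborn and mature projection neurons, had 18 sites in the cerebrum and 1 in the cerebellum. It was marked mainly in the coding sequence, which held 16 of the 18 sites, while the 3′ UTR held 1 and the 5′ UTR 1. Of the 24 DRACH adenosines in its coding sequence 12 were listed in the cerebrum, 50% (31.4% to 68.6%), and of the 11 in its 3′ UTR 1 was listed, 9.09% (1.62% to 37.7%). These intervals overlap. Of its 2 exons, the last one is 1850 nt long, holds the whole coding sequence and carried 17 of the 18 sites. The density was 6.05 DRACH sites per kb in the cerebrum and 0.465 in the cerebellum.

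Tbr1, the T-box gene of layer 6, had 25 sites in the cerebrum and 0 in the cerebellum. On its coding transcript 10 DRACH sites lay in the coding sequence, 5 in the 3′ UTR and 1 in the 5′ UTR, together 4.02 per kb. They fell at both ends of the gene. Exon 1 carried 5 and exon 6, the last, carried 11. The short exons 2 to 5 between them carried 0, with 11 DRACH adenosines among them. Internal exons had low shares in general. Over the background genes 5.21% of their DRACH adenosines were listed in the cerebrum, and 2.07% of all those within 100 nt of a junction. One more DRACH site, AGACA, lay in an intron.

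Fezf2, the zinc finger gene of layer 5, had 18 sites in the cerebrum and 0 in the cerebellum. Its 13 DRACH sites, 5.35 per kb, were split between exon 1 with 5 and exon 4, the last, with 8. Exons 2 and 3 had 0 of 5 DRACH adenosines listed, beside 5.21% in internal exons over the background genes. Of the 8 in exon 4, GAACC at 402 is the last annotated base of the transcript, so its motif runs past the annotated end. It is counted here but not among the DRACH adenosines below.

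Bcl11b, the zinc finger gene that acts downstream of Fezf2 in layer 5, had 79 sites in the cerebrum and 24 in the cerebellum. Of the 54 DRACH sites in the cerebrum, 37 lay in its 3′ UTR of 4997 nt, 16 in the coding sequence and 1 in the 5′ UTR. The cerebellum listed 17 in the 3′ UTR and 5 in the coding sequence, and each of these 22 was also in the cerebrum list. The densities were 6.66 and 2.71 per kb, the highest of the 8 genes in each tissue. All 24 cerebellum sites lay in exon 4, the last, of 7012 nt. Along the 3′ UTR the cerebrum listed 9 of 18 DRACH adenosines in the first 1000 nt, 16 of 29 in the second, 6 of 19 in the third, 1 of 9 in the fourth and 5 of 13 in the rest. The cerebellum listed 3, 7, 3, 1 and 3 of the same adenosines.

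**Figure D2:**
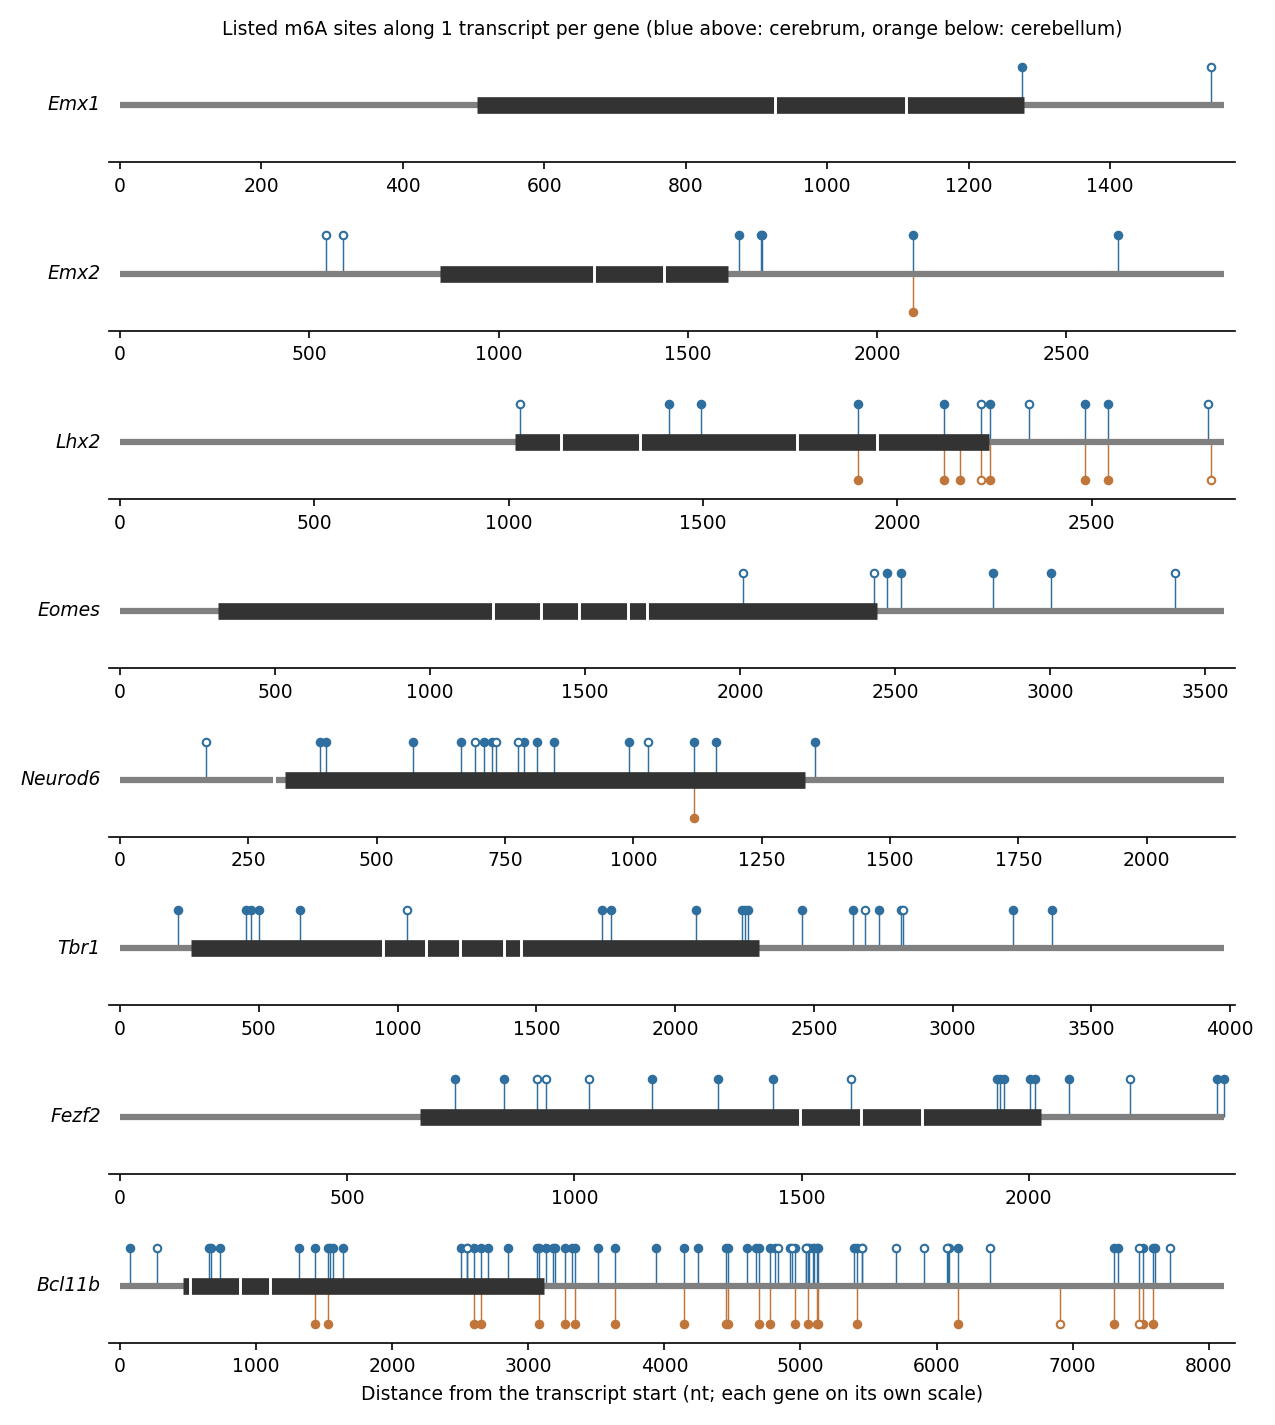
Listed sites along the reference transcript of each gene (x axis, nt from the transcript start, each gene on its own scale), cerebrum above in blue and cerebellum below in orange. Filled circles are sites in the DRACH motif and open circles others, the thick bar is the coding sequence and white ticks are exon junctions. Neurod6 is marked in its coding sequence, Tbr1 in its first and last exons and Bcl11b along its 3′ UTR.

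In order of density in the cerebrum the genes were Bcl11b, Neurod6, Fezf2, Tbr1, Lhx2, Emx2, Eomes and Emx1. The 4 genes described above as acting in neurons thus stood above the 4 of progenitors, and what this order reflects was not tested. Density depends on how many DRACH adenosines a transcript has, so the share of DRACH adenosines that were listed was computed on 1 reference transcript per gene, the complete coding isoform that holds the most listed sites and, among equals, the longest. In the cerebrum this share was 42.2% (34% to 50.8%) in Bcl11b, 33.3% (20.6% to 49%) in Neurod6, 26.1% (15.6% to 40.3%) in Fezf2 and 24.6% (15.8% to 36.3%) in Tbr1. It was 15.2% (7.57% to 28.2%) in Lhx2, 9.09% (3.95% to 19.6%) in Emx2, 7.14% (1.27% to 31.5%) in Emx1 and 5.06% (1.99% to 12.3%) in Eomes. The order was that of the densities but for Emx1 and Eomes, and the intervals of each neighbouring pair in it overlap. The interval of Eomes lies below those of Bcl11b, Neurod6, Fezf2 and Tbr1. Those of Lhx2 and Emx1 overlap the intervals of Neurod6, Fezf2 and Tbr1, and that of Emx2 overlaps the intervals of Fezf2 and Tbr1.

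Over the 8 genes 112 of 472 DRACH adenosines were listed in the cerebrum, 23.7% (20.1% to 27.8%), and 30 in the cerebellum, 6.36% (4.49% to 8.93%). Over the background genes, the 9620 coding genes with a complete isoform and at least 1 exonic DRACH site in the cerebrum, the shares were 9.08% and 5.26%. Without Bcl11b the shares of the other 7 genes were 16.9% (13.3% to 21.2%) in the cerebrum and 2.33% (1.18% to 4.52%) in the cerebellum, so the interval of the cerebellum share held the background value with Bcl11b and lay below it without. Bcl11b alone reached 17.2% (11.6% to 24.7%) in the cerebellum and Lhx2 13% (6.12% to 25.7%).

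**Figure D3:**
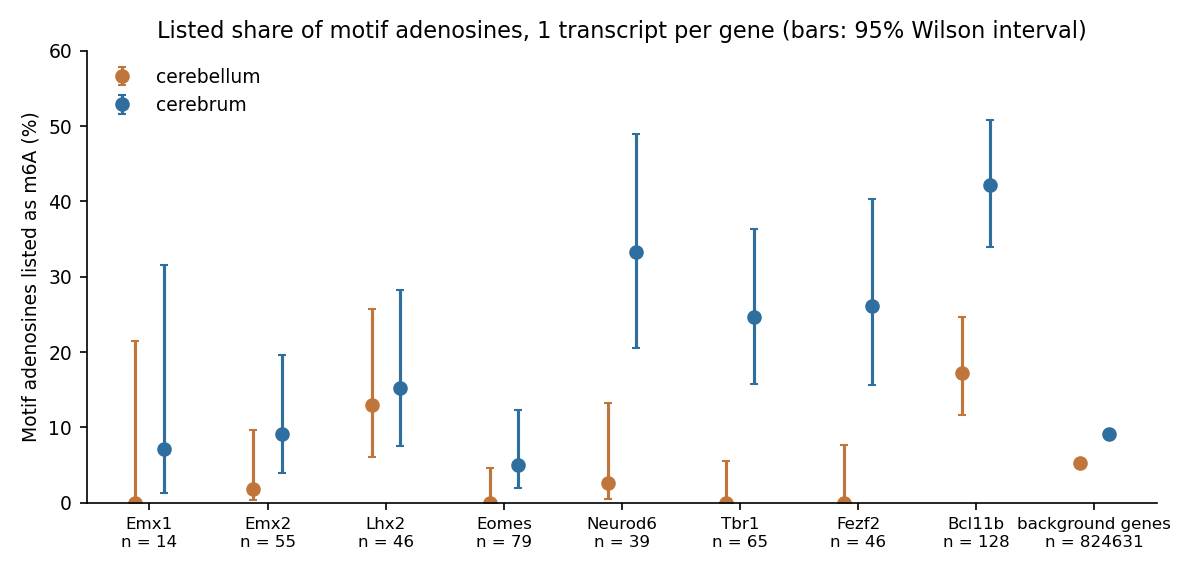
Percent of the DRACH adenosines of 1 transcript per gene that were listed as m6A (y axis) in the cerebellum (orange) and the cerebrum (blue), with n the number of DRACH adenosines and error bars the 95% Wilson interval. Bcl11b is highest at 42.2% in the cerebrum, and the value over the 9620 background genes, coding genes with a cerebrum site, is 9.08%.

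Most positions listed in the cerebellum were listed in the cerebrum too. For the 8 genes 31 of the 34 cerebellum sites, 91.2% (77% to 97%), were in the cerebrum list, beside 60.8% over all cerebellum sites. Without Bcl11b it was 8 of 10, 80% (49% to 94.3%), an interval that holds the 60.8%. For DRACH sites it was 96.7% (83.3% to 99.4%), beside 81% over all cerebellum DRACH sites. In the other direction 18.2% (13.2% to 24.7%) of the cerebrum sites were in the cerebellum list, beside 25.6% over all cerebrum sites. For DRACH sites it was 25.2% (18.2% to 33.9%), 29 of 115, beside 45.3% over all cerebrum DRACH sites. Without Bcl11b it was 11.5% (5.67% to 21.8%), 7 of 61. The 3 sites listed in the cerebellum alone were TAACT and TAAAA of Lhx2, at -74 and 571, and AAAGC of Bcl11b at 3791. Of the 31 shared sites 23 were in Bcl11b, 6 in Lhx2, 1 in Emx2 and 1 in Neurod6, with 22 in 3′ UTRs and 9 in coding sequences, and 30 of them lay in last exons.

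Genes with the identical pair of exonic DRACH counts (cerebellum, cerebrum) were counted as a measure of likeness over the 2 libraries. Emx1 shared its pair with 556 other coding genes, Pax6 and Dmrta2 of the cortical progenitors among them, and Eomes shared its pair with 155, among them Etv1 of layer 5. Emx2 had 124 such genes and Lhx2 48. The pairs with many cerebrum sites were rarer. Neurod6 shared its pair with 7 other genes, Fezf2 with 6, Tbr1 with 4 and Bcl11b with 0. At least as many sites in the cerebrum as Tbr1, and 0 in the cerebellum, occurred in 20 other coding genes, and 36 met the same criterion for Fezf2. By the cerebrum count alone, 65 coding genes had at least as many sites as Bcl11b and 1421 at least as many as Tbr1, each count including the gene itself.

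**Figure D4:**
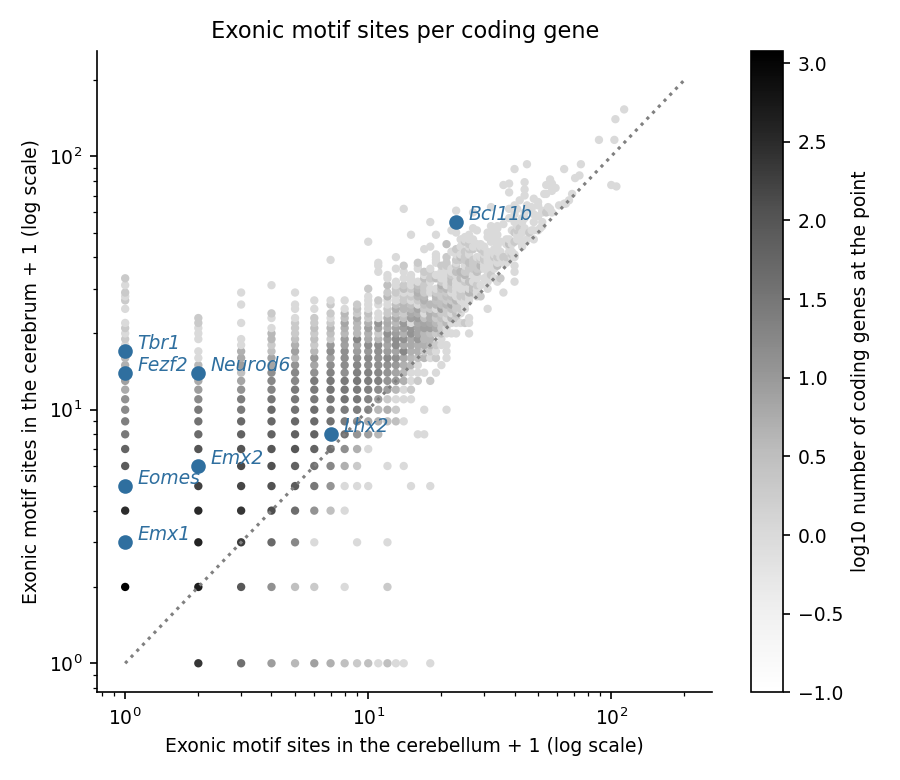
Exonic DRACH sites per coding gene in the cerebellum (x axis) and the cerebrum (y axis), both plus 1 on log scales, with grey points shaded by the number of genes there and the 8 genes in blue. The dotted line marks equal counts. Tbr1 (0 and 16) and Fezf2 (0 and 13) stand high on the left edge, Bcl11b (22 and 54) is at the upper right and Lhx2 (6 and 7) is just above the line.

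Other transcription factors of cortical progenitors and projection neurons gave a wider frame. Of 32 such genes 31 had an exonic DRACH site in the cerebrum and 24 in the cerebellum, and 29 had more in the cerebrum, beside 8177 of the 10025 coding genes with any such site. In sum they had 524 sites in the cerebrum against 249 in the cerebellum. That ratio of 2.1 stands beside 1.72 over all coding genes with such a site and 3.8 over the 8 genes. The median count of the 32 genes was 13.5 in the cerebrum and 5 in the cerebellum. Over all coding genes with such a site the medians were 4 and 2, and over the 8 genes they were 10 and 0.5. Cux2, Pou3f3 and Zbtb18 had the most in the cerebrum, with 44, 42 and 37, and had 20, 26 and 15 in the cerebellum. Neurod1 had 15 and 0, Etv1 4 and 0, and the progenitor factors Pax6, Dmrta2 and Neurog2 had 2, 2 and 1 in the cerebrum and 0 in the cerebellum. Neurog1 had 0 in both, and Lhx9 was the single gene with more in the cerebellum, 11 against 9.

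Markers of other cells were counted too, beside the cerebrum to cerebellum ratio of 1.72 over all coding genes with an exonic DRACH site. Of 9 subpallial and interneuron genes, all 9 had an exonic DRACH site in the cerebrum and 3 in the cerebellum, with 96 sites against 6 in sum. Their range was 1 to 27 per gene in the cerebrum and 0 to 4 in the cerebellum, and Dlx1, Dlx2, Dlx5, Dlx6, Isl1 and Lhx6 were at 0 in the cerebellum. Nkx2-1 had 8 in the cerebrum against 1, Gad2 had 5 against 4 and Gad1 had 1 against 1. The list is made of genes of the striatum and of inhibitory neurons, and Gad1 and Gad2 in it were not particular to the cerebrum. Bcl11b is also expressed in striatal neurons, and the part of such cells in the Bcl11b counts was not tested. Of 16 cerebellar transcription factors 11 had a site in the cerebellum and 6 in the cerebrum, 81 against 52 sites. En1, En2, Barhl1, Barhl2 and Lhx5 were at 0 in the cerebrum, Zic4, Zic2 and Gbx2 had more in the cerebrum (15 against 4, 8 against 6 and 2 against 1), and the defining genes Atoh1, Ptf1a, Skor2 and Pax2 were at 0 in both tissues. The 4 microglial genes had 7 sites in the cerebrum against 4 in the cerebellum, a ratio of 1.75 that is close to the 1.72. The 4 oligodendrocyte lineage genes had 27 against 22, a ratio of 1.23.

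The share of sites in the motif was higher for the 8 genes than for all listed sites, which are a different mix. On coding transcripts lay 151 of the 170 cerebrum sites and all 34 cerebellum sites of the 8 genes. Over all listed sites it was 119245 of 188295 and 58687 of 79355. A motif share over exonic sites alone was not computed for all listed sites. DRACH made up 67.6% (60.3% to 74.2%) of their 170 cerebrum sites, beside 46.7% of all cerebrum sites, and 88.2% (73.4% to 95.3%) of their 34 cerebellum sites, beside 62.1% of all cerebellum sites. The share was 93.5% (79.3% to 98.2%) at the 31 shared positions and 61.9% (53.6% to 69.5%) at the 139 listed in the cerebrum alone, beside 82.7% and 34.4% over all such sites. GGACT was the most frequent 5-mer with 18 sites, followed by AAACT with 17, GGACA with 14, GGACC with 11 and TGACT with 10.

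The letters of the motif were not listed equally. In the cerebrum 18 of the 33 GGACT adenosines of the 8 reference transcripts were listed, 54.5% (38% to 70.2%), beside 23.3% over the background genes. For TGACT it was 10 of 19, 52.6% (31.7% to 72.7%), beside 15%, and for AAACT 17 of 39, 43.6% (29.3% to 59%), beside 11.6%. None of the 16 adenosines in TAACA was listed, and none of the 20 in TAACC or of the 26 in TGACC, where the background shares were 1.46%, 0.542% and 1.84%. Grouped by the last letter, 41.7% (33.9% to 49.8%) of DRACH adenosines ending in T were listed, against 12.5% (8.15% to 18.7%) ending in C and 18.8% (13.7% to 25.2%) ending in A. Over the background genes the same shares were 16.5%, 4.15% and 6.61%, which is the same order. In the coding sequence, 36 of 115 DRACH adenosines at the second codon position were listed, 31.3% (23.5% to 40.3%), 6 of 44 at the first, 13.6% (6.4% to 26.7%), and 11 of 43 at the third, 25.6% (14.9% to 40.2%). These intervals overlap, and the background shares were 7.91%, 7.35% and 8.68%.

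Exonic sites were concentrated away from exon junctions. Of the 151 cerebrum sites on coding transcripts 77 were in 3′ UTRs, 51% (43.1% to 58.8%), 68 in coding sequences, 45% (37.3% to 53%), and 6 in 5′ UTRs. Over all 119245 cerebrum sites on coding transcripts 54.8% were in 3′ UTRs and 42% in coding sequences. The 3′ UTR share rests on Bcl11b, since it was 34.9% (25.6% to 45.7%) without it, and the coding share was then 60.2% (49.5% to 70.1%). Within 200 nt of the end of the stop codon lay 19.9% (14.3% to 26.9%), beside 18.6% of those 119245 sites, and 28.9% (20.3% to 39.4%) without Bcl11b. Last exons held 124 of the 151, 82.1% (75.2% to 87.4%), beside 69.2% over the same 119245 sites. Without Bcl11b it was 61 of 83, 73.5% (63.1% to 81.8%), an interval that holds the 69.2%.

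Of the 88 DRACH adenosines within 100 nt of a junction 4 were listed in the cerebrum, 4.55% (1.78% to 11.1%). The share was 34.3% (20.8% to 50.8%) from 100 to 200 nt, 25.5% (15.8% to 38.3%) from 200 to 400 nt and 27.9% (23.1% to 33.3%) beyond. Over the background genes it was 2.07%, 17.5%, 22.7% and 10.9%. The coding sequence of the 8 genes showed the low value too, with 4.71% (1.85% to 11.5%) within 100 nt and 49.1% (36.6% to 61.7%) beyond 400 nt. The 4 listed adenosines close to a junction were GGACT at -823 and -337 in Lhx2, AGACA at -945 in Neurod6 and AAACT at -591 in Fezf2. Of the 17 internal exons of the 8 transcripts 3 carried a DRACH site in the cerebrum, exon 2 of Bcl11b (366 nt) and exons 3 (404 nt) and 4 (206 nt) of Lhx2.

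**Figure D5:**
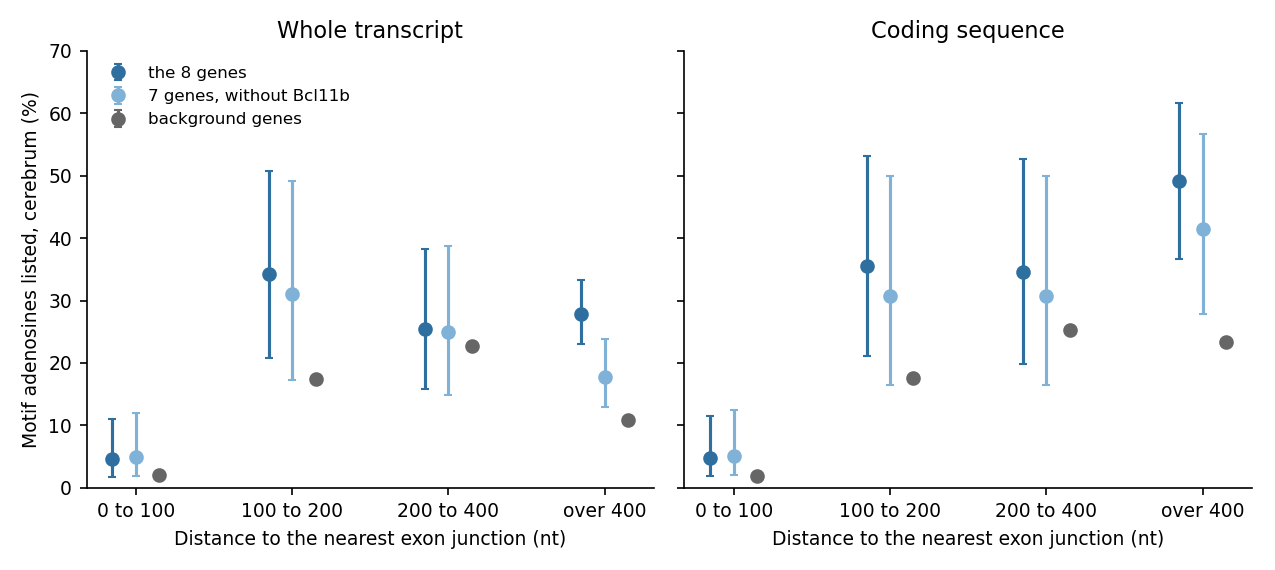
Percent of DRACH adenosines listed in the cerebrum (y axis) by distance to the nearest exon junction in nt (x axis), over whole transcripts on the left and coding sequences on the right, with 95% Wilson intervals. Dark blue is the 8 genes, light blue the 7 genes without Bcl11b and grey the background genes. All 3 series are lowest within 100 nt, where the 8 genes stand at 4.55%.

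Of the 57 sites outside DRACH 37 differed from it by 1 letter, and in 20 of those the letter was the C after the adenosine. Of the letters around the adenosine, this C is the only one fixed to 1 base. The same counts were not made over all listed sites. Neurod6 had 5 sites outside DRACH, all 1 letter off, among them TTACT at -643 and -307 and CGACT at -603. Shared between the tissues were CGACT of Lhx2 at -20 and CAACT of Bcl11b at 4374. Bcl11b had 5 sites at the centre of AAAAA, 4 in the 3′ UTR and 1 in the 5′ UTR, none of them in the cerebellum. Introns held 18 sites, 11 in Bcl11b, 5 in Tbr1 and 2 in Lhx2, all in the cerebrum and 1 of them in DRACH. The Lhx2 pair, TCATC and CCATC, lay 6 nt apart. With introns left out, 75% of the cerebrum sites of these genes were in DRACH, with no exonic share over all listed sites to set beside it.

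The listed coding sites of the related pairs were placed on their protein alignments. Eomes and Emx2 had 0 DRACH sites listed in their coding sequences, so no codon could be marked in both genes of a pair. Tbr1 and Eomes were identical at 56.1% of 627 aligned residues. Of the 10 listed DRACH sites in the Tbr1 coding sequence 9 fell on aligned codons. At 3 of these 9, Tbr1 codons 131, 494 and 666, Eomes also has a DRACH adenosine at the aligned base. Among all 28 aligned DRACH adenosines of the Tbr1 coding sequence, listed or not, this held for 13. At codon 131 both genes read GGACC. Emx1 and Emx2 were identical at 70.4% of 240 aligned residues, and the Emx1 site at codon 257 aligns with CGATT in Emx2, which is outside the motif.

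Overlapping genes left the counts unchanged. Emx2os, the antisense RNA that overlaps the start of Emx2, had 1 site in the cerebrum, outside DRACH and outside the Emx2 interval, and Gm27197 and Gm13584 opposite Lhx2 and Gm33460 opposite Eomes had 0. The opposite strand of the 8 intervals held 0 sites. All 173 sites lay at an A of GRCm38, the C57 base.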

How the data were processed

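The 2 lists of m6A sites were analysed, with 1 library per tissue, so no differential test was made. The authors treated poly(A)+ RNA by GLORI with deamination at 25 °C, called sites with GLORI-tools on mm10 and on mm10 carrying PWK bases, united both sets and retained those with more than 8 reads and a methylation rate over 0.1. The deposited values are genomic positions with a strand, and no rate or depth is given. Gene models were GENCODE M21, which is not the release used for calling, and sequences GRCm38 (RefSeq). Exonic sites were assigned to the longest complete coding isoform covering them, and listed shares used 1 reference transcript per gene (most listed sites, then longest). The members and gene lists were chosen with earlier results of these data known. The genes named were the 8 members, genes of the lists listed in 1 tissue or holding the most sites, identical count pairs in the cortical list, and overlapping genes. Other names were chosen after their values were seen. Some genes of the lists are not reported here by name. Shares have 95% Wilson intervals. Region and motif assignment was tested on simulated data. Python 3.11.15, pandas 2.3.3, pysam 0.24.0, biopython 1.88, samtools 1.23.1 and matplotlib 3.10.9 were used.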

Additional observations from a re-analysis of the deposited data

How the results depend on the processing

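Of 46 alternative values for 14 results, 31 stayed within the Wilson interval of a share or within 1.5 times a count, and 15 moved. Leaving out Bcl11b, chosen after seeing the data, moved the shared sites to 8.79% of the cerebrum sites, the 3′ UTR share to 50% in the cerebellum and 34.9% in the cerebrum, the share within 200 nt of the stop codon to 40% and 28.9%, and the listed share of DRACH adenosines to 2.33% and 16.9%. In the cerebellum the interval of the listed share was 4.49% to 8.93% with Bcl11b, which held the 5.26% of the background genes, and 1.18% to 4.52% without. The other 2 cerebellum shares rested on 10 sites without Bcl11b. The 3′ UTR intervals, 53.8% to 83.2% with Bcl11b and 23.7% to 76.3% without, both held the 57.1% of all sites. Those near the stop codon, 8.35% to 33.5% and 16.8% to 68.7%, both held the 20% of all sites. With the stricter RRACH motif, the cerebellum motif share was 70.6%, the cerebrum motif share 60%, and the listed share in the cerebrum 27.9%. On exons alone the DRACH share in the cerebrum was 75%. For DRACH sites alone 25.2% of the cerebrum sites were shared. A window of 400 nt around the stop codon held 30.5% of the cerebrum sites. With at least 3 exonic DRACH sites required, 2 genes remained in the cerebellum, Lhx2 and Bcl11b. With at least 10 required in the cerebrum, also chosen after seeing the data, 2 genes had none in the cerebellum. No paired analysis was possible because each tissue has 1 library. The lists carry no reads, so expression, coverage and methylation cannot be told apart at any site that is not listed, and no methylation level was compared. Motifs were read from the C57 reference, not from the PWK copy.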

Other observations

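Downstream of the annotated 3′ ends, the cerebrum list held 2 further DRACH sites 110 and 121 nt past the end of Fezf2 and 1 DRACH site 977 nt past the end of Tbr1, on the strand of each gene. The cerebellum list held 0 in these windows of 1000 nt, and the other 6 genes had 0 in both tissues. The search was added after seeing the data, and with these sites the cerebrum count of the 8 genes is 173.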
